A study of Homo sapiens with 16 samples.

Results

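The genes described are 10 genes of insulin-like growth factor (IGF) and insulin signalling, taken by name from the gene count table of a HepaRG RNA-seq series: 2 growth factors (IGF1, IGF2), 5 IGF binding proteins (IGFBP1, IGFBP2, IGFBP3, IGFBP4, IGFBP6), the insulin receptor (INSR) and its substrates IRS1 and IRS2. The 10 names fill 11 of the 58735 gene rows, because IGF2 has 2 rows, and 8 of the 10 names had enough counts to be tested. HepaRG cells are a human hepatic line; differentiated cultures hold both hepatocyte-like and cholangiocyte-like cells. Cells of the control group received vehicle (1% BSA), and the other groups received 30 nM formoterol (a beta-2 adrenergic agonist), 0.25 mM palmitic acid with 0.5 mM oleic acid (called fatty acids), or both (called the combination). The labels give BSA for the control group only and do not say whether the other groups received it. All groups were differentiated cells, treated for 3 days, and all were kept in 2% DMSO in a serum-containing medium that, per the labels, also held insulin and the glucocorticoid triamcinolone acetonide, so no group was free of insulin. Each group had 4 libraries of poly-A RNA. The series calls them independent replicates without saying that they were separate cultures, and the p-values therefore reflect the spread among these libraries, which may be technical.

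IGF1 and IGF2 are secreted peptides that signal mainly through the IGF1 receptor, and insulin signals through INSR; both receptors pass the signal on through IRS1 and IRS2 to the kinase AKT. The liver is the main source of circulating IGF1, and IGF binding proteins hold IGFs in the blood and tissue fluid, extending their life and setting how much reaches the receptors. In hepatocytes insulin represses IGFBP1 and IRS2 through the transcription factor FOXO1, and both are induced in fasting.

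The 250 bases before a RefSeq transcript start are printed for 4 genes that stand for the patterns of change described below: IGFBP3, which was higher with fatty acids in both settings, IGFBP4, which was higher in the combination, INSR, which was lower with fatty acids, and IRS2, which was lower with formoterol alone. They come from RefSeq's GRCh38.p14 and are written 5′ to 3′ on the strand of the gene, with matches to 5 searched motifs in capitals.
IGFBP3: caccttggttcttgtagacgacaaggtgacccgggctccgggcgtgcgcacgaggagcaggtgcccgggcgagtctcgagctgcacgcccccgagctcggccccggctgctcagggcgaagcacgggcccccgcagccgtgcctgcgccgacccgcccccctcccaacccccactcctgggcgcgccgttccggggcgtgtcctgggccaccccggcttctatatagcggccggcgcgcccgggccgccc
IGFBP4: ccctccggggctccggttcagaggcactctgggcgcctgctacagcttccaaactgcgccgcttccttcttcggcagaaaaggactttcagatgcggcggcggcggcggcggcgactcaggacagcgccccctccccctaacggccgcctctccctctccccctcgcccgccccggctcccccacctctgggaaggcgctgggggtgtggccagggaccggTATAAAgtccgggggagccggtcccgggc
INSR: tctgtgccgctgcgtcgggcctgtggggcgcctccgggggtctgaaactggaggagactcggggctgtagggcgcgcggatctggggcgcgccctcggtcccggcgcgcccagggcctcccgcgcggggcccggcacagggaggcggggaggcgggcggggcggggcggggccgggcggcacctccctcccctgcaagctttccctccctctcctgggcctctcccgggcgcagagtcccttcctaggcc
IRS2: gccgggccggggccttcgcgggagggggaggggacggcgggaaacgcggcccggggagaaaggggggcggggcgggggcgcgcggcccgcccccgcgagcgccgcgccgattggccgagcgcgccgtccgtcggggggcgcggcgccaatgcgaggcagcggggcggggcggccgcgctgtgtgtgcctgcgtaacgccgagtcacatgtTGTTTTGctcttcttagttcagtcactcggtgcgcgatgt
The windows are chr7:45921273-45921522 (minus strand), chr17:40443200-40443449 (plus), chr19:7294415-7294664 (minus) and chr13:109786584-109786833 (minus). Each of 5 motifs was searched on both strands. GTAAACA is the core that forkhead factors such as FOXO1 bind, and the insulin response sequence has the core CAAAACA. The others were the nuclear receptor motif AGGTCA, the CREB motif TGACG and the TATA box in its form TATAAA. No matches overlapped. The IGFBP4 window held TATAAA, found in 10.7% of the 35116 RefSeq windows of this length. The IRS2 window held TGTTTTG, the reverse complement of CAAAACA, which 4.3% of windows hold on either strand. The IGFBP3 and INSR windows matched none of the 5 motifs. GC content was 76.0% for IGFBP3, 71.6% for IGFBP4, 78.4% for INSR and 76.4% for IRS2, against a median of 58% over all windows. Of the 10 genes 8 had a window; IGFBP1 and IGF2 are named only. The IGFBP6 window and 1 of the 2 windows of IGF1 held GTAAACA, found in 2.98% of windows. Of the 3 windows of IGFBP2 1 held a match to the nuclear receptor motif on the other strand (12.1% of windows hold it on either strand), and the IRS1 window matched none. That IGFBP2 window, the IRS1 window and the printed INSR window do not adjoin a principal start. The INSR window spans 7294415 to 7294664, while the INSR gene model runs up to 7294034.

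Library totals ran from 32.5 × 1e6 to 65.7 × 1e6 counts. Levels are given as CPM (counts in a library per 1e6, scaled with TMM factors) and, between genes, as CPM per kb of gene model. The hepatocyte-like character of the cells was plain: 18 of 18 hepatocyte markers were measured, with ALB at a mean of 24892 CPM. Of 12 cholangiocyte markers 9 were measured, with KRT7 at 0.394 CPM and EPCAM listed at 0, and their group values stand beside IGFBP3. Macrophage and leukocyte markers summed to 2.64 to 4.75 CPM, with 3 of 8 measured. Of 8 endothelial markers 2 were measured, KDR at a mean of 98.8 CPM and PECAM1 at 2.27 CPM, with CDH5 and CLEC4G listed at 0. Their sum was 117 to 133 CPM in control, 39.1 to 50.6 with formoterol, 158 to 172 with fatty acids and 52.7 to 107 in the combination. Of the stellate and fibroblast marker rows 12 were tested, with COL1A2 listed at 0. Summed levels of all rows of this list, tested or not, were 667 to 830 CPM in control and 496 to 535 in formoterol. They were 785 to 914 in fatty acids and 629 to 791 in the combination. One library stood apart: combination replicate 2 had 31725 CPM of summed hepatocyte markers against 70196 to 77862 in the other 3 combination libraries, and 969 CPM of summed proliferation genes against 628 to 662. Values without it are given beside some of the calls and counts that change. Other counts of called list genes also moved without combination replicate 2, so a count given alone may depend on this library. In RNA of whole cultures, fewer cells of a type and less RNA per cell cannot be told apart.

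For the 2 growth factors the table holds no usable level. Both IGF2 rows (chromosome 11, 2129112 to 2149603 and 2129112 to 2158658) were listed at 0 in all 16 libraries. IGF1 (chromosome 12, 102395874 to 102481744) had 37 counts over all libraries and at most 10 in any. Their gene models overlap others. Of the exon bases of the 2 IGF2 rows, 75% and 90% are shared with other rows, which leaves 1744 and 584 bases unshared. Most of these are shared between the 2 IGF2 rows themselves (5144 bases, 73.7% and 87.9%). Of the exon bases of IGF1, 82.4% are shared with HELLPAR, a long non-coding RNA on the opposite strand, which leaves 1429. In the deposited counts 282 of 282 protein-coding genes whose exon bases are all shared with genes of their strand were at 0, as were 17 of 17 whose exon bases are all shared with the opposite strand alone. Of the 36 genes that share at least 80% with the opposite strand alone, as IGF1 does, 25 (69.4%) were at 0 and the others had counts. These 36 include the 17 that are shared in full, all at 0, so 69.4% overstates the share for partly shared genes such as IGF1. Of the 11097 genes that share no base 17.3% were at 0. The part of shared bases in the IGF1 and IGF2 values was not tested. The other 8 genes share at most 1.41% of their exon bases (IRS2), and 7 share none.

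By CPM per kb, IGFBP4 led in every group, at 270.0 ± 30.0 in control, 288 ± 21.1 in formoterol, 266 ± 7.95 in fatty acids and 365 ± 11.3 in the combination (mean ± SD, n = 4). IGFBP4 binds both IGFs and is mostly described as an inhibitor of their action. INSR followed at 13.0 ± 1.21 CPM per kb in control and 9.81 ± 0.795 in the combination. IRS2 came next at 10.3 ± 0.509 in control and 9.35 ± 1.46 in the combination. The order of these 3 was the same in the means of all 4 groups, and their libraries overlapped only for INSR and IRS2 in the combination. The other 5 genes lay between 2.11 and 5.14 CPM per kb. In control the order went on with IRS1 at 4.46, IGFBP1 at 3.05, IGFBP3 at 3.03, IGFBP6 at 2.81 and IGFBP2 at 2.11 CPM per kb. IGFBP1, IGFBP3 and IGFBP6 were not separated from their neighbours there, whereas IRS1 stood above all 4 libraries of IGFBP1 and IGFBP2 stood below all 4 of IGFBP6. This order depends on the gene models, which join all annotated exons (4767 bases for IGFBP2). Lengths of the transcripts in use were not measured, and with them the order could differ. With fatty acids IGFBP1 (5.14 ± 1.08) and IGFBP3 (4.90 ± 0.230) had higher means than IRS1 (4.37 ± 0.235), with overlapping libraries, and IGFBP6 (2.34 ± 0.484) was last.

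**Figure D1:**
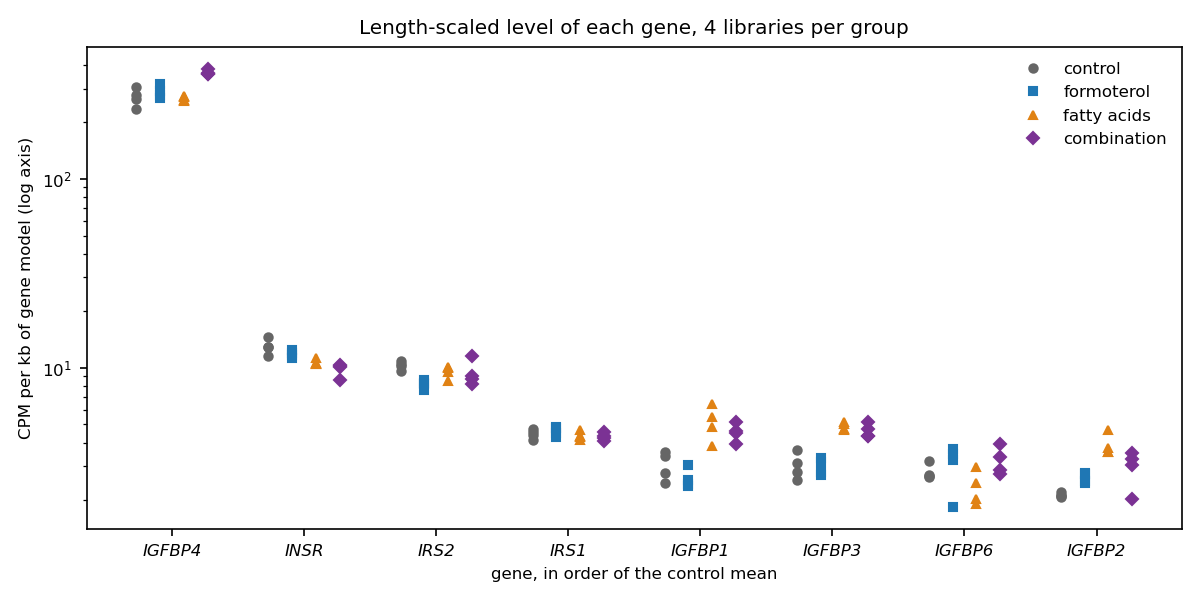
Level of the 8 measured genes in CPM per kb of gene model (vertical log axis), ordered by the control mean; each symbol is 1 of 4 libraries per group. IGFBP4 lies between 233 and 381 CPM per kb in all libraries, INSR and IRS2 near 10 and the other 5 genes near 2 to 6.

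Adding fatty acids to control cells raised 3 of the 8 tested genes (IGFBP1, IGFBP2 and IGFBP3) and lowered 1 (INSR). Of all 18121 genes tested 16.5% changed there at an edgeR adjusted p under 0.05, with 8.93% higher and 7.62% lower. Formoterol alone raised 0 of the 8 and lowered 1 (IRS2), where 10.3% of all genes changed, 5.76% upward and 4.57% downward. Adding formoterol to fatty acids raised 1 (IGFBP4) and lowered 0, where 2.8% of all genes changed, 1.68% upward and 1.12% downward. Adding fatty acids to formoterol raised 3 (IGFBP1, IGFBP3 and IGFBP4) and lowered INSR, with 18.4% of all genes changed, 9.48% upward and 8.97% downward. The combination against control raised 4 (IGFBP1 to IGFBP4) and lowered INSR, with 14.3% of all genes changed, 7.58% upward and 6.68% downward. The interaction asks whether formoterol acted differently with and without fatty acids; it is the change from fatty acids to the combination minus the change from control to formoterol. It passed for IGFBP4, upward (2.12% of all genes), and for IGFBP2, downward (3.38%), where 5.5% of all genes passed. The comparisons share libraries (control enters 3 of the pairwise ones), so their counts are not independent of each other.

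**Figure D2:**
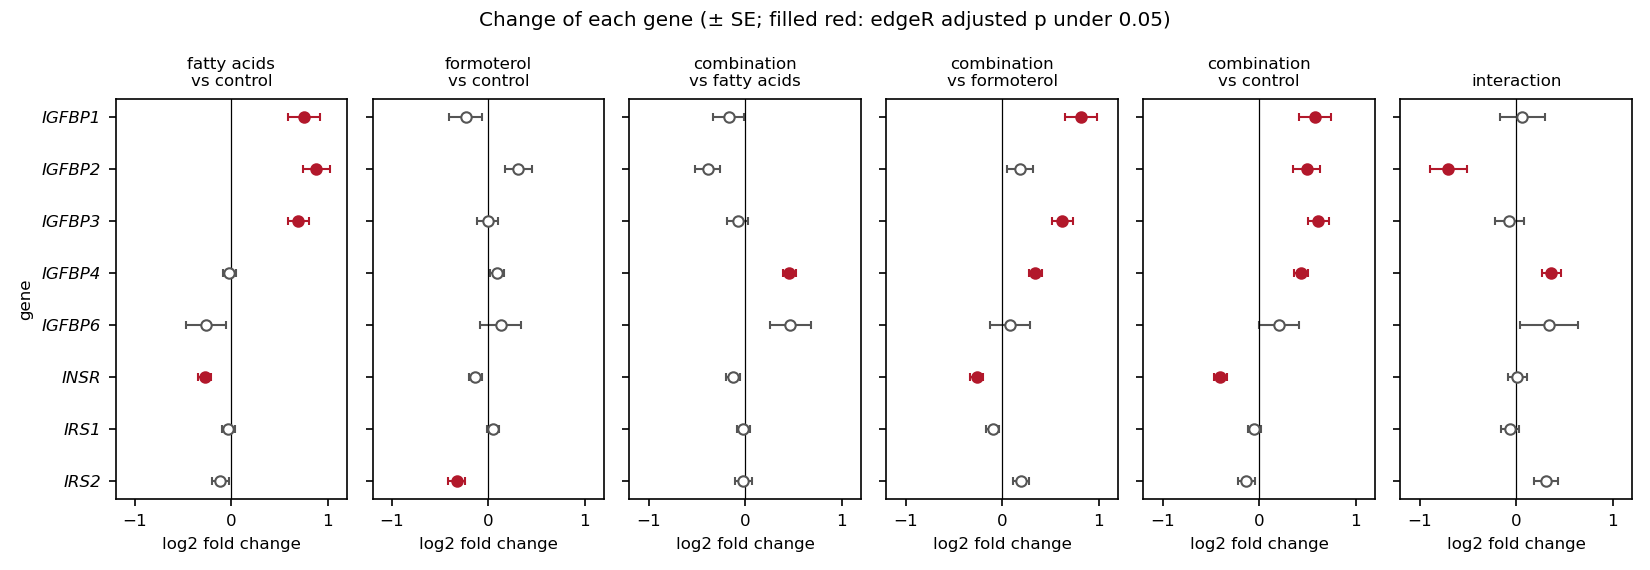
Log2 fold change (horizontal axis) of the 8 measured genes in the 5 pairwise comparisons and the interaction, with bars of ± 1 SE from the edgeR fit over 16 libraries; filled red points have an adjusted p under 0.05. IGFBP1 and IGFBP3 lie right of 0 in the comparisons that add fatty acids, IGFBP4 in those that end in the combination, and INSR lies left of 0 in the 5 pairwise comparisons.

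IGFBP1 (chromosome 7, 45888357 to 45893668, plus strand, GRCh38) encodes a small circulating binding protein made by hepatocytes in fasting. It was at 4.57, 5.89, 4.06 and 5.64 CPM in the control libraries and 3.91, 3.99, 5.05 and 4.21 CPM with formoterol. With fatty acids it was at 9.08, 10.6, 6.33 and 8.04 CPM and in the combination at 7.44, 8.54, 7.67 and 6.54 CPM. Every library with fatty acids, alone or combined, lay above every library without them. IGFBP1 was 1.69-fold higher with fatty acids than in control (log2 0.75 ± 0.17 SE, edgeR adjusted p = 0.00293) and 1.76-fold higher in the combination than with formoterol (0.82 ± 0.17, adjusted p = 0.00161). Against control the combination was 1.50-fold higher (edgeR adjusted p = 0.0204), a call that was lost without control replicate 1 (0.0647) or control replicate 3 (0.0736). The difference with formoterol for IGFBP1 was -0.23 on the log2 scale without fatty acids (95% interval -0.58 to 0.12) and -0.17 with them (-0.51 to 0.17), and neither passed the test. Counts of IGFBP1 per library were 137 to 351.

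IGFBP3 (chromosome 7, 45912245 to 45921874, minus strand) is the neighbour of IGFBP1, 18.576 kb away, and encodes the main carrier of IGFs in blood. Its control libraries were at 14.2, 11.6, 16.7 and 12.8 CPM and its formoterol libraries at 15.3, 12.8, 12.4 and 14.5 CPM. Fatty acid libraries were at 21.6, 22.9, 23.6 and 21.4 CPM and combination libraries at 19.8, 19.8, 23.4 and 21.7 CPM. As for IGFBP1, no library without fatty acids reached any library with them. The rise was 1.62-fold from control (0.69 ± 0.11, edgeR adjusted p = 9.4e-05) and 1.54-fold from formoterol to the combination (0.62 ± 0.11, adjusted p = 0.000341). The difference with formoterol, which did not pass, was -0.01 (95% interval -0.23 to 0.22) in control cells and -0.08 (-0.30 to 0.14) in cells with fatty acids. The interaction was -0.07 ± 0.15 for IGFBP3 and 0.06 ± 0.23 for IGFBP1, and neither passed (edgeR adjusted p = 0.850 and 0.918). The summed level of the 12 listed cholangiocyte markers, of which 9 were measured, was also higher with fatty acids. It was 371 to 399 CPM in control and 423 to 443 with formoterol. With fatty acids it was 558 to 614, and in the combination 474 to 587. Of these markers 4 rose and 1 fell with fatty acids, and 2 rose and 1 fell in the combination against formoterol. KRT19, a keratin of bile duct cells, was 2.86-fold higher with fatty acids than in control (edgeR adjusted p = 1.3e-11). Its mean went from 58.7 to 168 CPM, so it weighs heavily in the sum. SOX9, on the same list, was 2.17-fold lower in the combination than in control (edgeR adjusted p = 7.2e-09). In that comparison 3 of the 9 rose and 1 fell. The part of these markers in the changes of IGFBP1, IGFBP3 and INSR was not tested.

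IGFBP2 (chromosome 2, 216632828 to 216664436, plus strand), a binding protein secreted by hepatocytes, had the largest point estimate of the 8 genes with fatty acids alone. The control libraries held 9.80, 10.1, 9.98 and 10.4 CPM and the formoterol libraries 11.7, 13.1, 12.0 and 13.2 CPM. In fatty acid libraries IGFBP2 was at 17.9, 17.0, 17.0 and 22.3 CPM and in combination libraries at 14.6, 9.61, 16.8 and 15.6 CPM. Fatty acids thus gave the highest values, and combination replicate 2 was at the level of control while the other 3 combination libraries lay between control and fatty acids. The level with fatty acids was 1.84-fold that of control (0.88 ± 0.14, edgeR adjusted p = 9.3e-05). Formoterol libraries all lay above the control libraries, by 0.31 ± 0.14 on the log2 scale, which did not pass over all genes (adjusted p = 0.164). Added to fatty acids, formoterol went with a difference of -0.39 ± 0.13 (edgeR adjusted p = 0.140). The interaction was -0.70 ± 0.19 (edgeR adjusted p = 0.0345).

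The IGFBP2 calls that involve the combination depended on single libraries. The interaction lost its call without any one of 9 libraries (control 1, 3 or 4, formoterol 2, 3 or 4, fatty acids 1 or 4, combination 1), with edgeR adjusted p of 0.0528 to 0.0728, and kept it without combination replicate 2 (-0.56, adjusted p = 0.0305). The combination was 1.41-fold above control (edgeR adjusted p = 0.0178), a call lost without combination replicate 3 or 4 (0.0584 to 0.0762). Without combination replicate 2 that difference was 0.64 on the log2 scale (adjusted p = 0.000163), and the fits that leave this library out also called IGFBP2 in formoterol against control (0.31, adjusted p = 0.0486) and in the combination against formoterol (0.33, adjusted p = 0.0495). Hepatocyte markers moved in the same comparisons: 11 of 18 rose and 1 fell with fatty acids, 13 rose and 0 fell with formoterol, and 13 of 18 had a negative interaction past the threshold (16 without combination replicate 2). Their summed level was 35649 to 49935 CPM in control, 77307 to 84790 with formoterol, 64555 to 73303 with fatty acids and 31725 to 77862 in the combination. Their part in the IGFBP2 result was not tested.

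IGFBP4 (chromosome 17, 40443461 to 40457731, plus strand) was higher in the combination than in any other group. It was at 581, 512, 670.4 and 612 CPM in control, and at 587, 611, 638 and 695 CPM with formoterol. Fatty acid libraries were at 604, 595, 568 and 572 CPM, and combination libraries at 788, 839, 787 and 795 CPM. All 4 combination libraries exceeded all 12 others, which overlapped among the 3 groups. The combination was 1.37-fold above fatty acids (0.46 ± 0.07, edgeR adjusted p = 0.000420), 1.27-fold above formoterol (0.34 ± 0.07, adjusted p = 0.00153) and 1.35-fold above control (adjusted p = 0.000136). Neither agent alone gave a change that passed: the difference was -0.02 (95% interval -0.17 to 0.12) with fatty acids and 0.09 (-0.05 to 0.24) with formoterol. The interaction of 0.36 ± 0.10 passed (edgeR adjusted p = 0.0321), but not without any one of control 3 or 4, formoterol 1, 2 or 3, or fatty acids 2, 3 or 4 (0.051 to 0.0801). Without combination replicate 2 it was 0.34 (edgeR adjusted p = 0.0274), and the rise over fatty acids was 0.43 (0.000191).

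Proliferation genes were also highest in the combination. Of 15 such genes 15 rose in the combination against control, 15 against formoterol and 11 against fatty acids (6 without combination replicate 2), 12 rose with fatty acids alone and 4 with formoterol alone; 0 fell in any of these. Their summed level was 275 to 314 CPM in control, 335 to 371 with formoterol, 419 to 555 with fatty acids and 628 to 969 in the combination. Combination replicate 2 held the highest value of both IGFBP4 (839 CPM) and the proliferation genes (969 CPM). In the fatty acid libraries the proliferation genes were above control, while IGFBP4, at 568 to 604 CPM, lay within the control range. The part of proliferating cells in the IGFBP4 result was not tested.

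**Figure D3:**
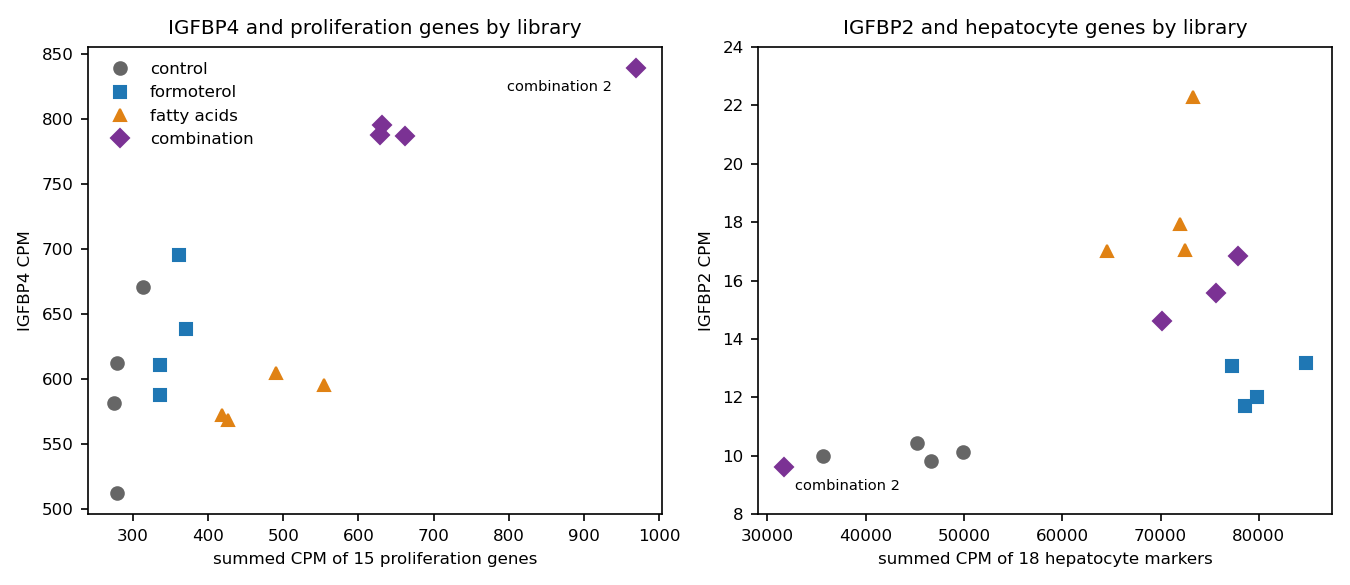
Left, IGFBP4 (CPM, vertical) against the summed CPM of 15 proliferation genes; right, IGFBP2 (CPM) against the summed CPM of 18 hepatocyte markers; each symbol is a library and the vertical axes do not start at 0. Combination replicate 2 is at the top right for IGFBP4 and at the bottom left for IGFBP2, beside the control libraries.

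IGFBP6 (chromosome 12, 53097436 to 53102345, plus strand) encodes a binding protein that prefers IGF2. Its levels were 3.56, 3.60, 4.32 and 3.63 CPM in control and 2.46, 5.01, 4.67 and 4.36 CPM with formoterol. They were 2.72, 2.56, 4.00 and 3.31 CPM with fatty acids and 3.88, 5.31, 3.68 and 4.54 CPM in the combination. All 4 groups overlapped, and formoterol replicate 1 held the lowest value of all. No comparison passed, and the widest difference was that of the combination from fatty acids, at 0.47 ± 0.21 (95% interval 0.03 to 0.91, edgeR adjusted p = 0.310).

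**Figure D4:**
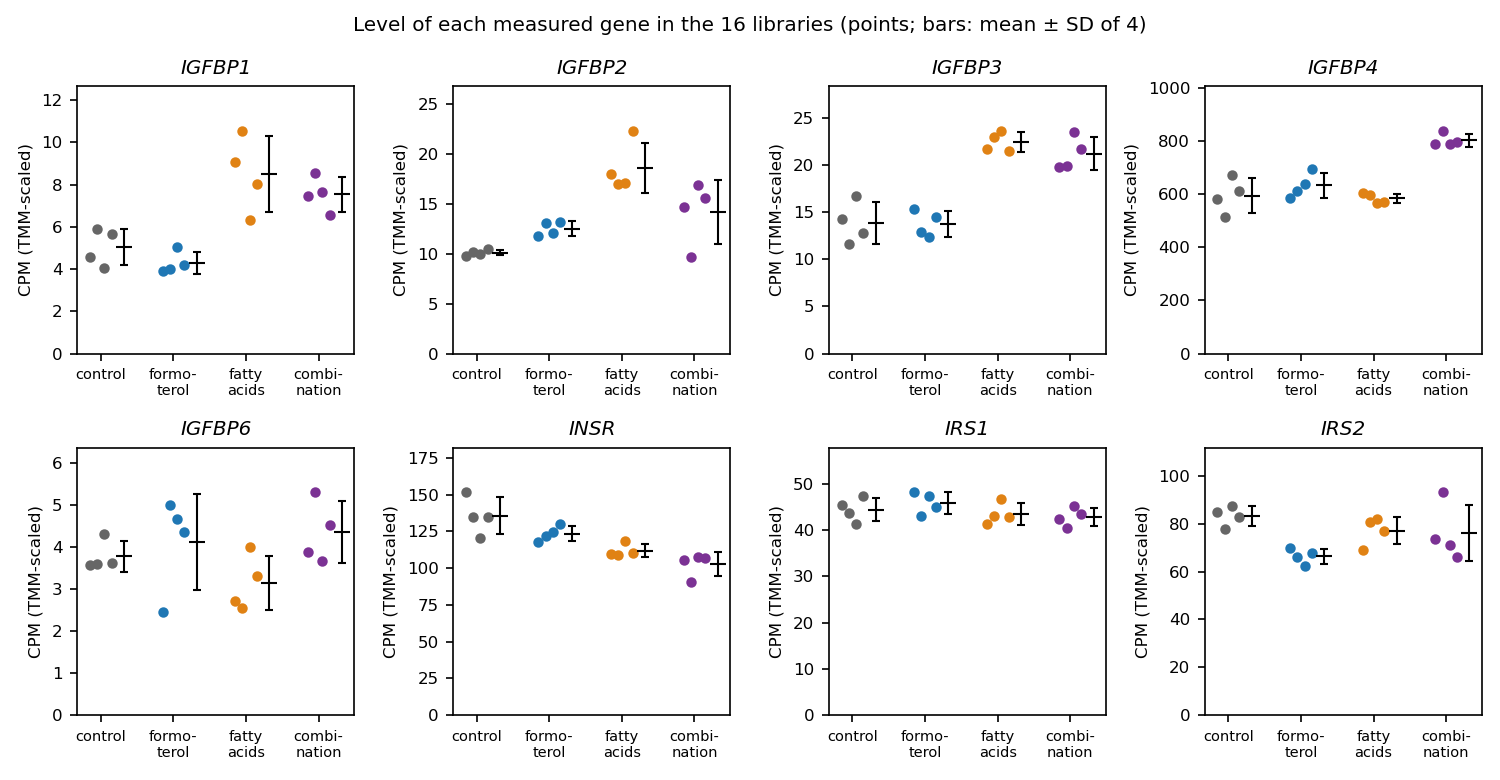
CPM (vertical axes from 0) of the 8 measured genes in the 16 libraries, in replicate order within each group, with the mean ± SD of 4 beside the points. IGFBP1 and IGFBP3 are split by fatty acids (IGFBP3 at 11.6 to 16.7 CPM without and 19.8 to 23.6 with them), IGFBP4 sets the combination apart, and the 4 groups overlap for IRS1.

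INSR (chromosome 19, 7112255 to 7294034, minus strand), the receptor that binds insulin and starts the relay, was lower in each group that received fatty acids. The control libraries were at 152, 135, 121 and 135 CPM and the formoterol libraries at 117, 122, 125 and 129.6 CPM. The fatty acid libraries were at 109.8, 109, 118 and 110.4 CPM and the combination libraries at 105, 90.2, 108 and 107 CPM. The highest fatty acid library stayed just under the lowest control library, and all combination libraries lay below all fatty acid libraries. INSR fell by 0.28 on the log2 scale with fatty acids (SE 0.07, edgeR adjusted p = 0.00853), to 0.825 of control. In the combination it was 0.757 of control (-0.40 ± 0.07, edgeR adjusted p = 0.000333) and 0.831 of formoterol (-0.27 ± 0.07, adjusted p = 0.0103). With formoterol the INSR difference was -0.14 alone (95% interval -0.28 to 0.01) and -0.13 on top of fatty acids (-0.27 to 0.02), and neither passed. With libraries scaled by total counts only, formoterol against control passed (-0.27) and the combination against formoterol did not (-0.14). That scaling shifted the median of all genes by -0.133 in formoterol against control and by 0.134 in the combination against formoterol.

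IRS1 (chromosome 2, 226731317 to 226799759, minus strand), a substrate of the receptor and an adaptor that docks phosphoinositide 3-kinase, was at 45.4, 43.6, 41.3 and 47.3 CPM in control and 48.2, 43.0, 47.5 and 45.0 CPM with formoterol. With fatty acids it was at 41.2, 43.1, 46.7 and 42.8 CPM and in the combination at 42.3, 40.5, 45.2 and 43.5 CPM. The ranges of all groups overlapped and no comparison passed. Its intervals were narrow: fatty acids against control were at -0.03 (95% interval -0.17 to 0.11), formoterol against control at 0.05 (-0.09 to 0.18) and the combination against control at -0.05 (-0.19 to 0.09), on the log2 scale.

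IRS2 (chromosome 13, 109752698 to 109786568, minus strand), whose transcript insulin represses in liver, was lower with formoterol alone. It was at 85.1, 77.9, 87.7 and 83.1 CPM in control and 69.8, 66.3, 62.2 and 67.7 CPM with formoterol. With fatty acids it was at 69.1, 80.6, 81.9 and 77.1 CPM and in the combination at 73.6, 93.3, 71.2 and 66.3 CPM. The formoterol libraries all lay below the control libraries, and combination replicate 2 was the highest of all 16. IRS2 fell by 0.33 on the log2 scale with formoterol (SE 0.09, edgeR adjusted p = 0.0167), to 0.797 of control. That call was lost without control replicate 3 (0.0602) or formoterol replicate 3 (0.0592). Fatty acids gave -0.11 ± 0.09 and the combination -0.13 ± 0.09 against control, and neither passed (edgeR adjusted p = 0.425 and 0.358). Without combination replicate 2 the combination was below control as well (-0.25, edgeR adjusted p = 0.0157). Formoterol added to fatty acids gave -0.02 ± 0.09. The interaction of 0.31 ± 0.12 missed the threshold (edgeR adjusted p = 0.144), so the fall in one setting was not shown to differ from the value in the other. The combination against formoterol (0.20 ± 0.09, edgeR adjusted p = 0.121) passed without combination replicate 4 (0.0472). Endothelial and stellate marker sums, given above, were likewise lower in all formoterol libraries than in all control libraries. Each sum rests mostly on 1 gene. KDR, a receptor of vascular endothelial growth factor and most of the endothelial sum, fell by 1.44 on the log2 scale (SE 0.15, edgeR adjusted p = 3.7e-06). Of the 12 tested stellate and fibroblast marker rows 0 rose and 1 fell with formoterol. That row was DCN, at a mean of 537 CPM in control and 349 with formoterol. In the fit without combination replicate 2, 0 rose and 3 fell of 13 rows tested. The part of these markers in the IRS2 result was not tested.

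Counted by libraries that do not overlap, 4 of the 8 genes separated fatty acids from control (21% of all genes did), 2 separated formoterol from control (16.7%) and 3 the combination from fatty acids (9.34%). The combination was separated from formoterol by 4 genes (21.1%) and from control by 4 (16.3%).

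Ratios within a library do not depend on its scaling. IGFBP4 made up 93.0 ± 0.276% of the summed CPM per kb of the 7 binding proteins IGFBP1 to IGFBP7 in control, 93.9 ± 0.322% with formoterol, 91.9 ± 0.358% with fatty acids and 94.1 ± 0.25% in the combination (mean ± SD, n = 4). The share with fatty acids was below that of every control library, and the shares with formoterol and in the combination were above it and overlapped each other (exact permutation p = 0.457). The IRS2 to IRS1 ratio was 2.31 ± 0.203 in control, 1.77 ± 0.125 with formoterol, 2.17 ± 0.099 with fatty acids and 2.18 ± 0.435 in the combination. All formoterol libraries had a lower ratio than all control libraries. INSR outnumbered IGF1R, the type 1 IGF receptor, by 3.69 ± 0.552 to 1 in control, 3.81 ± 0.348 with formoterol, 2.63 ± 0.179 with fatty acids and 2.28 ± 0.301 in the combination. Both groups with fatty acids lay below all 8 libraries without them. In 2-sided exact permutation tests 8 of the 15 comparisons of these ratios gave p = 0.0286, the smallest that 4 libraries against 4 allow, and 0.0536 after Benjamini-Hochberg adjustment over the 15, so none passed 0.05.

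**Figure D5:**
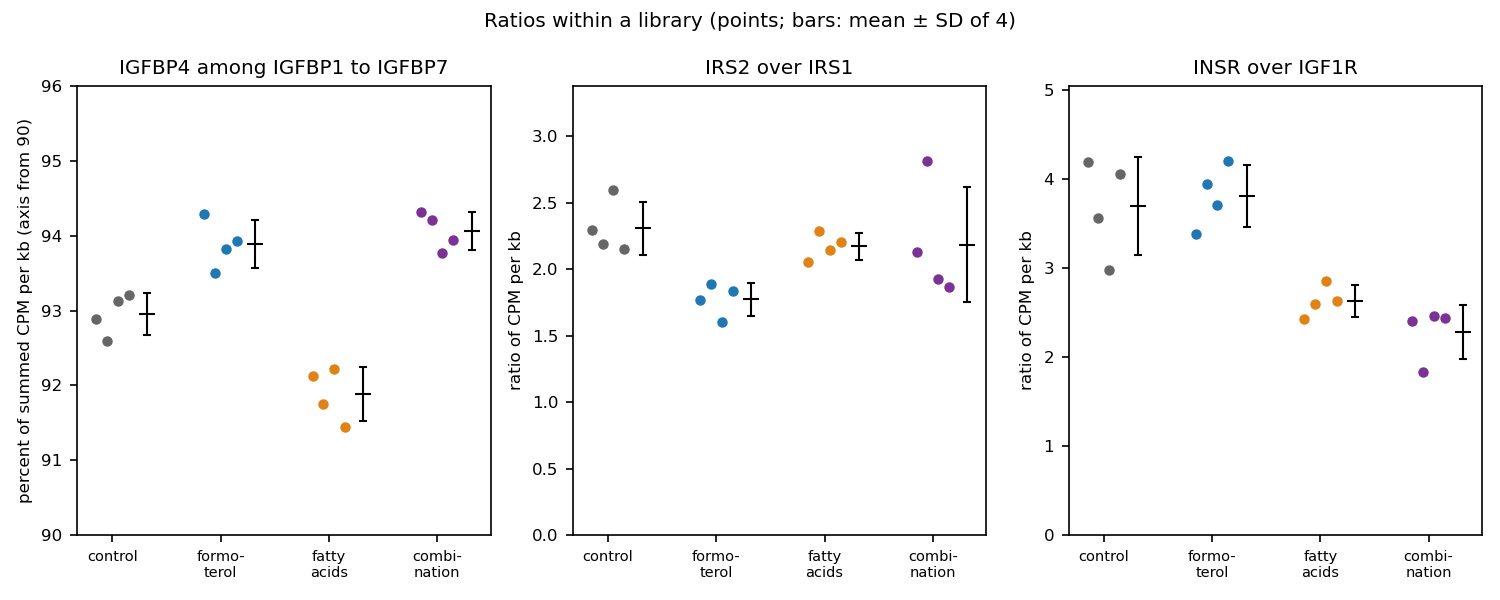
Share of IGFBP4 among 7 binding proteins (percent, axis from 90), IRS2 over IRS1 and INSR over IGF1R (ratios of CPM per kb, axes from 0) in each library, with mean ± SD of 4. The IGFBP4 share is lowest with fatty acids (91.4% to 92.2%), IRS2 over IRS1 is lowest with formoterol (1.60 to 1.89), and INSR over IGF1R is lower in both groups with fatty acids.

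Beyond the 10 genes, 12 of 15 other genes of the IGF system were tested: further binding proteins, receptors, proteases that cut binding proteins, and IGF2 mRNA-binding proteins. Of them 2 rose and 3 fell with fatty acids (16.5% of all genes changed), 2 rose and 0 fell with formoterol (10.3%), 1 rose and 0 fell when formoterol was added to fatty acids (2.8%), and 3 rose and 4 fell in the combination against control (14.3%). The 5 called with fatty acids became 2 without fatty acids replicate 2, and 3 without any one of control 1 or 4, formoterol 2 or 3, fatty acids 4 or combination 4. Without combination replicate 2, 2 rose and 5 fell with fatty acids. The 2 called with formoterol became 5 without combination replicate 2, and the 1 called when formoterol was added became 2 without fatty acids replicate 2. The median log2 change with fatty acids was -0.22, against 0.01 over all genes. IGFBP5, a binding protein held in the extracellular matrix, was at 7.81, 8.03, 8.85 and 8.02 CPM in control and 7.08, 7.55, 5.02 and 5.64 CPM with formoterol. It was at 4.92, 3.28, 5.30 and 4.90 CPM with fatty acids and 3.68, 2.88, 2.97 and 2.59 CPM in the combination. The combination and fatty acid libraries all lay below the control libraries, a direction opposite to that of IGFBP1, IGFBP2 and IGFBP3. IGFBP5 was 2.70-fold lower in the combination than in control (-1.43 ± 0.17, edgeR adjusted p = 4.7e-06) and changed by -0.83 ± 0.17 with fatty acids (adjusted p = 0.00159). ADAM12, a membrane protease that can cut IGFBP3 and IGFBP5, was 1.92-fold higher in the combination than in control (edgeR adjusted p = 1.0e-05) and 1.68-fold higher than with fatty acids (0.000761). IGF1R was 1.39-fold higher in the combination than with formoterol (edgeR adjusted p = 7.1e-05).

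The 9 genes of growth hormone signalling, which drives IGF1 in liver, were all tested. With fatty acids 1 rose and 2 fell (16.5% of all genes changed), with formoterol 0 rose and 1 fell (10.3%), and with formoterol added to fatty acids 3 rose and 1 fell (2.8%). The count of 1 with formoterol, near the share of all genes, became 0 without any one of control 2, 3 or 4 or formoterol 1, 2 or 4, and 2 without formoterol replicate 3 or combination replicate 2. GHR, the growth hormone receptor, was at a mean of 112 CPM in control, 144 with fatty acids and 105 in the combination. It rose with fatty acids (0.36 ± 0.07, edgeR adjusted p = 0.000943) and was lower in the combination than with fatty acids (-0.46 ± 0.07, adjusted p = 0.000506). CISH and SOCS2, feedback inhibitors that growth hormone induces, went the other way. CISH fell with fatty acids (-0.63 ± 0.08, edgeR adjusted p = 6.9e-06) and was higher in the combination than with fatty acids (0.42 ± 0.08, 0.00334). SOCS2 also fell with fatty acids (-0.60 ± 0.12, edgeR adjusted p = 0.00100) and was 1.70-fold higher when formoterol was added (0.000394).

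Among 27 tested genes of the relay from the receptors to AKT, mTORC1 and the FOXO factors, 3 rose and 3 fell with fatty acids (16.5% of all genes changed), 0 rose and 4 fell with formoterol (10.3%), and 0 rose and 4 fell in the combination against control (14.3%; 1 rose and 5 fell without combination replicate 2). The 4 called with formoterol became 1 without control replicate 3 and 2 without any one of control 4 or formoterol 1, 3 or 4. Medians were -0.05, -0.05 and -0.07 on the log2 scale, against 0.01, -0.00 and 0.00 over all genes. SHC1, an adaptor that couples the receptors to Ras, fell with fatty acids (-0.48 ± 0.06, edgeR adjusted p = 6.0e-06). FOXO1, the factor that switches on IGFBP1 and IRS2 when insulin is low, fell with fatty acids (-0.38 ± 0.06, edgeR adjusted p = 0.000255), with formoterol (-0.25 ± 0.06, 0.0153) and in the combination (-0.30 ± 0.06, 0.00205). The call with formoterol was lost without control replicate 3 (0.0578). FOXO3 fell with formoterol (-0.36 ± 0.06, edgeR adjusted p = 0.000536) but rose with fatty acids (0.20). The rise lost its call without any one of control 1 or 4 or fatty acids 1 or 3 (edgeR adjusted p 0.0580 to 0.0833). In the combination FOXO3 was lower than with fatty acids (-0.33) and higher than with formoterol (0.23).

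Of 17 inhibitors of insulin signalling 3 rose and 2 fell with fatty acids (16.5% of all genes changed), 1 rose and 3 fell with formoterol (10.3%), and 1 rose and 3 fell in the combination against control (14.3%; 2 and 2 without combination replicate 2). The 4 called with formoterol became 2 without control replicate 3 or formoterol replicate 1, and the 4 in the combination became 2 without combination 1 or 3 or control 1, and 1 without combination 4. TRIB3, a pseudokinase that binds AKT, was 1.55-fold higher with formoterol (edgeR adjusted p = 0.00678). INPP5K, a phosphoinositide phosphatase, fell with fatty acids (-0.37 ± 0.06, edgeR adjusted p = 0.000247). PTPRF, a receptor phosphatase, was 1.27-fold higher in the combination than with formoterol (edgeR adjusted p = 0.00411). Of 3 genes of insulin uptake and breakdown 1 rose with formoterol, CEACAM1, which aids insulin uptake by hepatocytes, at 1.65-fold (edgeR adjusted p = 0.0228), and 0 changed in the other pairwise comparisons. The CEACAM1 call was lost without control 3 or 4 or formoterol 2 (edgeR adjusted p 0.0538 to 0.0901), and without combination replicate 2 1 gene of the 3 rose with fatty acids and 1 in the combination against control.

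Genes that FOXO1 switches on and insulin lowers in liver were tested for 16 of 17 listed names, 1 of which (G6PC) is also on the hepatocyte marker list. With fatty acids 9 rose and 4 fell (16.5% of all genes changed), with a median log2 change of 0.83 against 0.01 over all genes. With formoterol 4 rose and 5 fell (10.3%), and when formoterol was added to fatty acids 0 rose and 5 fell (2.8%; 6 fell without combination replicate 2). PDK4, a kinase that slows pyruvate oxidation, was 3.36-fold higher with fatty acids (edgeR adjusted p = 8.7e-14), and ANGPTL4, an inhibitor of lipoprotein lipase, was 6.78-fold higher (1.1e-11). Both are also known targets of fatty-acid-activated PPAR receptors. TXNIP, which limits glucose uptake, rose 4.43-fold with fatty acids (edgeR adjusted p = 2.1e-14), fell with formoterol (-0.76 ± 0.07, 7.9e-07) and was lower in the combination than with fatty acids (-0.71 ± 0.07, 1.3e-06). The levels of IGFBP1 and IRS2, which belong to the same class of insulin-lowered genes, are those given above: IGFBP1 rose with fatty acids and IRS2 did not pass.

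Genes that insulin raises in liver were tested for 13 of 15 names. With fatty acids 2 rose and 4 fell (16.5% of all genes changed), with formoterol 5 rose and 2 fell (10.3%), and in the combination 0 rose and 4 fell against control (14.3%; 4 and 4 without combination replicate 2) and 0 rose and 7 fell against formoterol (18.4%). SREBF1, the master regulator of fatty acid synthesis, was 2.08-fold lower in the combination than with formoterol (edgeR adjusted p = 5.2e-05). HK2, a hexokinase, was 2.19-fold lower in the combination than in control (edgeR adjusted p = 1.5e-07). PKLR, liver pyruvate kinase, was 3.17-fold higher with fatty acids (edgeR adjusted p = 0.000279).

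Across the 16 libraries, the log2 CPM of each of the 8 genes was set against that of 11565 protein-coding genes averaging 2 CPM or more, and the 3 most alike were read out by Pearson r. These correlations describe libraries that share treatment groups and scaling. IGFBP2 was most like G0S2 (r = 0.975), AFM (0.963) and LEAP2 (0.948). IGFBP3 was most like KRT6A (0.948), KANK1 (0.942) and DCUN1D3 (0.933), and IGFBP1 like LRRC37B (0.928), PACSIN2 (0.925) and TRIM59 (0.910). IGFBP4 was most like AURKA (0.903), a mitotic kinase of the proliferation list, and DDX39A (0.889) and NCAPH (0.883). INSR was most like AZGP1 (0.917), SERINC3 (0.913) and METTL7A (0.912), and IRS2 like GGT5 (0.893), AFF2 (0.880) and PLEKHA7 (0.877). IGFBP6 and IRS1 had looser neighbours, led by MEN1 (0.763) and TOMM70 (0.832). For IRS1 the list moved with the scaling: r with NUDT9 was 0.800 and became 0.435 with total counts only.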

How the data were processed

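The authors deposited raw gene counts of 16 poly-A RNA libraries, 4 per group. Tools named in the submitters' processing notes are HISAT2 2.0.5 and DESeq2, beside a mouse genome build, mm39. The table itself is human: all 58735 gene IDs match GENCODE 29 (GRCh38) and 0 are mouse IDs, so coordinates are those of that annotation. The counting program and its strand setting were not given in the sources used here. From the counts, edgeR 4.0.16 (R 4.3.3) filterByExpr kept 18121 genes, TMM factors scaled the libraries, and quasi-likelihood tests with 4 group means gave 5 pairwise comparisons and the interaction, adjusted by Benjamini-Hochberg over all genes tested at 0.05. SE is the log2 fold change over the root of F; log2 CPM used a prior count of 2. On simulated counts (fatty acids against control, 17743 genes) 68% of 1.5-fold and 88% of 2-fold changes were recovered, with 3.7% false calls. The genes and lists were chosen with earlier results of these data known. Named were all 10 genes, up to 3 genes per pathway list with the smallest p among those called, and the 3 genes most like each member; marker lists are given by summed level. Same-numbered libraries did not deviate together (median r 0.00357 over 24 pairs, at most 0.0825), so replicate numbers were not used to pair them. Alternatives were DESeq2 1.42.0, its size factors or total counts only, other filters, only the 2 groups compared, protein-coding genes only, the replicate number as a block, and each library left out. Ratios within a library, and list counts without combination replicate 2, were added after the data were seen. Sequencing reads were not used here. Tables were made with pandas 2.3.3 and scipy 1.17.1, and figures with matplotlib 3.10.9, under Python 3.11.15.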

Additional observations from a re-analysis of the deposited data

Results flagged for a closer look

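In 4 of the 32 sets of 4 libraries tested (8 genes in 4 groups), 1 library lay far from the other 3; chance gives this in about 1 of 20 sets. IGFBP4 was at 839 CPM in combination replicate 2, against 787 to 795 in the other combination libraries. INSR was at 90.2 CPM in the same library, against 105 to 108. INSR was also at 118 CPM in fatty acids replicate 3, against 109 to 110.4. IGFBP6 was at 4.32 CPM in control replicate 3, against 3.56 to 3.63. The interaction passed for IGFBP4 (0.36 on the log2 scale, edgeR adjusted p = 0.0321) and for IGFBP2 (-0.70, adjusted p = 0.0345). For IGFBP4 the libraries with formoterol were higher in the mean in both settings. For IGFBP2 they were higher without fatty acids in 4 of 4 libraries and lower with them in 4 of 4. Both calls were fragile: that of IGFBP4 was lost without any one of 8 libraries, and that of IGFBP2 without any one of 9.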

How the results depend on the processing

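The rises of IGFBP1, IGFBP2 and IGFBP3 and the fall of INSR with fatty acids, and the rises of IGFBP4 in the combination against each other group, kept their direction and call under all alternatives run. Of 376 values of the 8 genes under settings other than a left-out library, 362 kept direction and call; over left-out libraries 717 of 768 did. With total counts only the reversals were IGFBP3 interaction 0.082, IGFBP4 formoterol against control -0.044, IGFBP6 formoterol against control -0.00891, IRS1 combination against fatty acids 0.00056 and against formoterol 0.033, formoterol against control -0.084 and interaction 0.084, and IRS2 combination against fatty acids 0.014. That scaling also took INSR in the combination against formoterol to -0.14 (call lost) and gave calls to INSR in formoterol against control (-0.27) and IRS2 in the combination against formoterol (0.34). It moved the share of higher among called genes from 55.7% to 20.2% in formoterol against control, from 51.4% to 81.0% in the combination against formoterol and from 38.5% to 74.6% in the interaction, whose median it shifted by 0.157. IGFBP3 in formoterol against control reversed with no filter (0.0048), and IGFBP2 in the combination against control lost its call with only the 2 groups fitted (0.49). The cause of these changes was not tested.

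With 1 library left out, values ranged as follows, on the log2 scale. For IGFBP1 they were 0.49 to 0.66 in the combination against control and -0.054 to 0.18 in the interaction. For IGFBP2 they were 0.40 to 0.64 in the combination against control, 0.084 to 0.33 against formoterol, 0.28 to 0.34 in formoterol against control and -0.80 to -0.56 in the interaction. IGFBP3 gave -0.083 to 0.096 in formoterol against control and -0.18 to 0.0027 in the interaction. IGFBP4 gave -0.087 to 0.040 in fatty acids against control and 0.30 to 0.43 in the interaction, and IGFBP6 -0.10 to 0.18 in the combination against formoterol. INSR gave -0.049 to 0.067 in the interaction, and IRS1 -0.046 to 0.017 in the combination against fatty acids and -0.068 to 0.00013 in fatty acids against control. IRS2 gave -0.25 to -0.072 in the combination against control, -0.13 to 0.041 against fatty acids, 0.082 to 0.26 against formoterol and -0.36 to -0.30 in formoterol against control. Over all genes, 302 to 590 changed in the combination against fatty acids (507 with all libraries; 302 without fatty acids replicate 3), 1002 to 2588 in formoterol against control (1872; 1002 without control replicate 3 and 1118 without formoterol replicate 4) and 444 to 1325 in the interaction (997; 444 without control replicate 3, 640 without control replicate 4, 604 and 653 without fatty acids replicates 1 and 3, and 585 without formoterol replicate 4). The count for the combination against fatty acids was 795 with DESeq2, 880 with no filter and 275 with only the 2 groups fitted, and the interaction count was 1523 with no filter.

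Of 58 called values of the other named list genes, 14 lost their call without at least 1 library. Of 1001 counts of called list genes 873 stayed within 1.5 times the main count. Formoterol against control moved most with total counts only: 2 other IGF system genes became 7, 4 inhibitors became 8 and 4 relay genes became 7. With the replicate number as a block, which does not pair these libraries, 3108 genes changed with fatty acids, 1967 with formoterol, 537 in the combination against fatty acids, 3447 against formoterol, 2583 against control and 1089 in the interaction; it reversed IGFBP3 in formoterol against control (0.0015) and changed no call of the 8 genes. Of the 16 libraries 1 correlated best with its own number in all other groups. Counts of IGFBP1 and IGFBP6 (at most 351 of IGFBP1 in a library) limit their precision.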

Other observations

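Of the 7 IGF binding protein genes, 4 sit in neighbouring pairs. IGFBP1 and IGFBP3, on chromosome 7, lie tail to tail across 18.576 kb, and both were higher with fatty acids (0.75 and 0.69 on the log2 scale). IGFBP2 and IGFBP5, on chromosome 2, are 7.668 kb apart and changed in opposite directions with fatty acids (0.88 and -0.83). In control they were at 10.1 ± 0.263 and 8.18 ± 0.461 CPM, and in the combination at 14.2 ± 3.17 and 3.03 ± 0.462 CPM (mean ± SD, n = 4). Whether the neighbours share control was not tested.

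HELLPAR, the non-coding gene that shares most exon bases of IGF1, had 156 counts over all libraries, against 37 for IGF1.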
